A study of Mus musculus with 9 samples.

Results

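The GADD45 genes *Gadd45a*, *Gadd45b* and *Gadd45g* were followed across 3 groups of 3T3 cells, an immortalised line of mouse fibroblasts. They were the probe sets that the array's annotation pairs with 1 of these symbols alone. Each of the 3 genes had 1 such probe set, among 19938 genes represented by a single-symbol probe set, so that no choice between probe sets by brightness arose. The family was chosen by its log2 differences in these same arrays, above all the TNF-α response of *Gadd45g*, so its values below are a description and its adjusted p-values are no independent evidence. Wild-type cells, with a small hairpin RNA (shRNA) of no relevant target, were taken at rest (unstimulated, n = 3 arrays) or stimulated for 1 h by TNF-α at 5 ng/ml (n = 3). TNF-α is an inflammatory cytokine whose receptors switch on NF-κB and the stress kinases. Trap-80 knock-down cells, which carried an shRNA against the Mediator subunit Trap-80, were stimulated in the same way (n = 3). The study derived its knock-down cells as clonal lines, used 1 of its hairpins in the main experiments and worked on with 1 clone per hairpin, so that a trait of the clone cannot be told apart from an effect of Trap-80. Resting knock-down cells were not analysed here, so that the response of the knock-down cells themselves could not be measured. In RNA from whole cultures, fewer cells of a type and less RNA per cell cannot be told apart.

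GADD45 proteins (growth arrest and DNA damage) are small acidic proteins without known enzyme activity that act by binding others. They bind and activate the kinase MAP3K4, which lies upstream of p38 and JNK, they bind PCNA and the cyclin-dependent kinase CDK1, and they take part in DNA repair and in active DNA demethylation. *Gadd45a* is a classic target of p53. *Gadd45b*, first described as a myeloid differentiation response gene, is an NF-κB target whose product also restrains JNK signalling through MKK7. *Gadd45g*, also called CR6, is known as a gene induced by cytokines.

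The regions before the start sites of the 3 genes are shown because 2 of the genes had higher signals and the third a lower one after TNF-α. RefSeq (build GRCm38.p6) gives these 250 bases before each start site, written 5′ to 3′ on the strand of the gene. Capitals mark the octamer ATTTGCAT, the motif of OCT1, the box CCAAT, bound by NF-Y, the E-box CACGTG and the TATA motif TATAAA, each on either strand.
Gadd45a (chr6:67037408-67037657, minus strand): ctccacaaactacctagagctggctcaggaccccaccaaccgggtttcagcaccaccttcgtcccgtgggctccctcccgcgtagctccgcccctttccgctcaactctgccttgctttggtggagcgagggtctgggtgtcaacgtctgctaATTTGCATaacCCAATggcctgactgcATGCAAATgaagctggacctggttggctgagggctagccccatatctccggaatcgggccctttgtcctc
Gadd45b (chr10:80929841-80930090, plus strand): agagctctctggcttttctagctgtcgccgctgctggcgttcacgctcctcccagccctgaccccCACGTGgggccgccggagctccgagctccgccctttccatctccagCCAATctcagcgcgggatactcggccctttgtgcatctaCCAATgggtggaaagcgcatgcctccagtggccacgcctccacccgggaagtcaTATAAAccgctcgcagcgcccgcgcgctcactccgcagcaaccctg
Gadd45g (chr13:51846425-51846674, plus strand): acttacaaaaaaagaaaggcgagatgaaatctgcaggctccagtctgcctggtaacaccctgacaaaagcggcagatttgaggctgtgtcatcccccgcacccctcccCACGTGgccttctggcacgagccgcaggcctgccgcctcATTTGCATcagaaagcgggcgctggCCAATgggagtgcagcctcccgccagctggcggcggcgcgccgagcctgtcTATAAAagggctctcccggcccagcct
The octamer occurred 2 times before *Gadd45a*, once on each strand, 1 time before *Gadd45g* and 0 times before *Gadd45b*. It was found in 1.6% of the 32851 RefSeq regions of the same length. CCAAT stood before all 3 genes (2 times before *Gadd45b*) and before 33.8% of all genes' start sites. The E-box occurred before *Gadd45b* and *Gadd45g* (6.02% of all regions), as did TATAAA (12.4% of all regions). A loose κB pattern, GGG followed by CC with any 5 bases between them, was counted on both strands. It had 3 matches before *Gadd45a*, 3 before *Gadd45g* and 0 before *Gadd45b*. The bases GGGCTAGCCC before *Gadd45a* and GGGCTCTCCC before *Gadd45g* each matched on both strands and so count 2 times. The remaining match before *Gadd45a* overlapped the same bases. This pattern was found in 45.8% of all regions. The AP-1 motif TGANTCA (6.75% of all regions) and the cAMP response element TGACGTCA (1.55% of all regions) were found before none of the 3 genes. These matches describe letters in this window, and the motifs were chosen with the 3 sequences in view. The paper searched a much longer region for conserved κB motifs. Bases outside this window were not searched here, so the absence of a match does not mean that a gene has no κB site.

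All values are log2 signals that the authors obtained by RMA. This method subtracts background, gives the probe signals of every array the same distribution and combines probes into 1 value per probe set. The medians of the deposited values still ranged from 4.47 to 4.59 between arrays. One limma model of the 9 arrays gave each difference between groups, with Benjamini-Hochberg adjustment over the 23410 probe sets that have a gene. A gene rose or fell below where its adjusted p was under 0.05. The 9 arrays correlated at 0.981 to 0.992 with one another. The 8 fibroblast markers were all at or above the median level of 5.02, from *Thy1* at 6.88 to *Vim* at 12.7, while none of the 4 endothelial, 4 epithelial and 4 muscle markers reached it. Of 5 macrophage markers, *Cd14* and *Cd68* did (5.46 and 5.47), and *Ptprc*, *Adgre1* and *Csf1r* did not (3.11 to 4.03). With TNF-α present, *Thy1* was higher by 2.09 in the knock-down and *Pdgfra* lower, at -1.89, while the summed marker level was alike (array means over the 8 markers of 10.31 to 10.61 in wild-type and 10.25 to 10.54 in knock-down arrays), and the part of this in the results below was not tested. The knock-down itself was visible in *Med17*, which encodes Trap-80. Its mean log2 signal was 7.89 ± 0.11 (SD, n = 3) in stimulated wild-type and 6.25 ± 0.09 in stimulated knock-down cells, which leaves 32.0% of the array signal. By quantitative PCR the paper reported a stronger reduction of this mRNA, and by western blot no detectable protein. The array value is thus not the share of Trap-80 that remained.

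After 1 h of TNF-α, the signals of *Gadd45a* and *Gadd45b* were about 2-fold higher in wild-type cells, whereas that of *Gadd45g* was lower by nearly as much. In all 3 genes the stimulated arrays were separated from the unstimulated ones. The opposite moves were of similar size: 2.01-fold for *Gadd45a*, 2.23-fold for *Gadd45b*, and for *Gadd45g* a drop to 54.6% of the unstimulated signal. Only the fall of *Gadd45g* passed the test in the model without the replicate number. All 3 passed with it, but the labels do not say what that number marks. The pairing was read from these same arrays and rests mainly on array 3, so the block is no independent support for the 2 increases.

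*Gadd45a* had log2 signals of 7.04, 6.92 and 7.36 in the unstimulated arrays 1, 2 and 3, and of 7.88, 7.91 and 8.54 in the stimulated wild-type arrays. The stimulated group lay above the unstimulated one with a gap of 0.52. The difference was 1.00 (standard error 0.19, 95% confidence interval 0.58 to 1.43), with an adjusted p of 0.16 from limma. In both groups array 3 stood highest, and the arrays of the same number differed by 0.84, 0.99 and 1.18. With the replicate number as a block in the model, the standard error was 0.09 and the adjusted p from limma 0.0038.

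*Gadd45b* was at 9.70, 9.56 and 9.83 in the unstimulated arrays and at 10.76, 10.72 and 11.09 in the stimulated wild-type arrays. Here too all stimulated arrays were above all unstimulated ones, with a gap of 0.89. The difference of 1.16 (standard error 0.18, 95% confidence interval 0.75 to 1.56) had an adjusted p of 0.081 from limma. Array 3 was again the highest in each group. The same-numbered arrays differed by 1.05, 1.16 and 1.26, and with the replicate number as a block the adjusted p from limma was 0.0040. Among the 23410 tested probe sets *Gadd45b* held rank 39 and *Gadd45a* rank 48 by the size of the increase.

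*Gadd45g* was at 8.22, 8.15 and 8.25 in the unstimulated arrays and at 7.34, 7.45 and 7.21 in the stimulated wild-type arrays. Its arrays lay closer together within each group (SD 0.05 unstimulated and 0.12 stimulated) than those of the other two genes. The difference was -0.87 (standard error 0.08, 95% confidence interval -1.06 to -0.68), with an adjusted p of 0.0061 from limma, and 0.010 with the replicate block. This was the fourth largest decrease among all tested probe sets and the 1 decrease that passed the test. Array 3, the highest stimulated array for the other two genes, was the lowest one here. The intervals of *Gadd45g* and of the other two lay on opposite sides of 0. The adjusted p was 0.051 without stimulated wild-type array 1, and 0.059 when the model held just the 6 wild-type arrays.

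**Figure D1:**
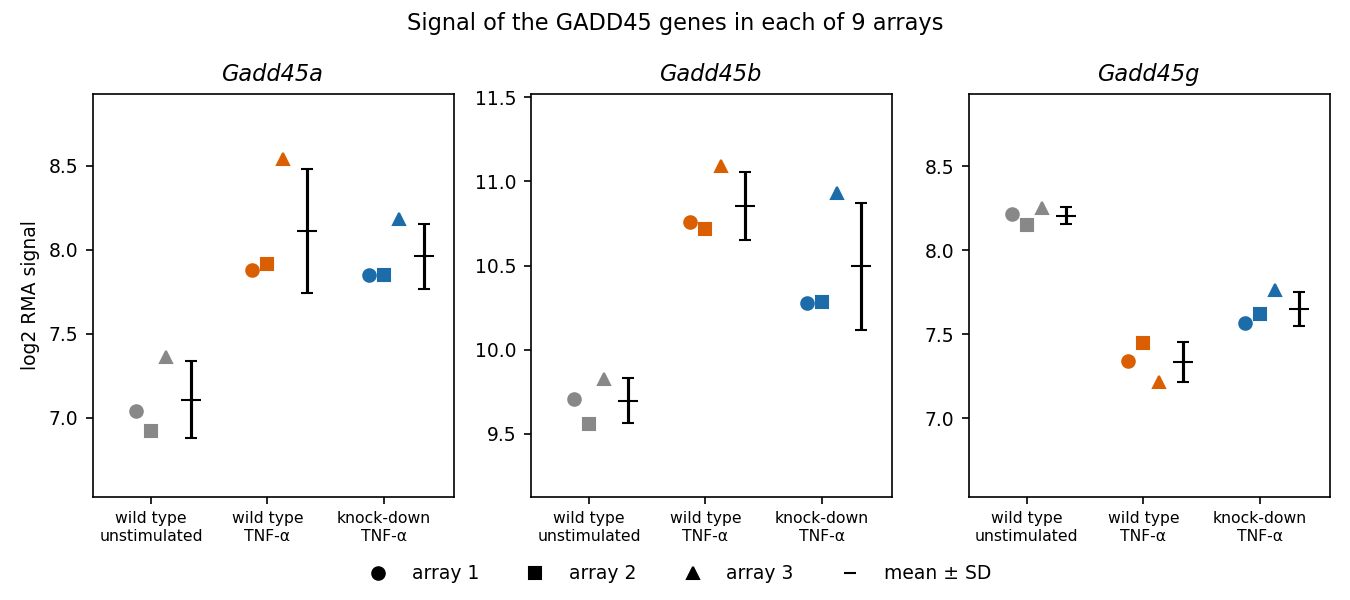
Log2 RMA signal (vertical axis) of *Gadd45a*, *Gadd45b* and *Gadd45g* in each of the 9 arrays, by group; symbols stand for arrays 1 to 3 and bars for the mean ± SD of 3 arrays, with the same span of the vertical axis in each panel. Both groups with TNF-α lie above the unstimulated group for *Gadd45a* and *Gadd45b* and below it for *Gadd45g*.

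Of all tested probe sets 0.115% passed the test in this comparison (0.111% higher and 0.00427% lower), and 7.1% had an unadjusted p under 0.05. All 3 GADD45 genes had such an unadjusted p. Groups without overlap were found in 10.2% of the probe sets (4.01% higher and 6.18% lower), beside 3 of 3 GADD45 genes. The exact permutation test (two-sided) gave p = 0.1 for each of the 3 genes, the smallest that 3 arrays against 3 allow. Since the 3 genes were chosen with results of these arrays known, their share is a description.

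In the comparison of knock-down with wild-type cells under TNF-α, none of the 3 genes passed the test. All 3 means were nearer to the unstimulated wild-type level in the knock-down than in the stimulated wild type. The family was chosen by its TNF-α differences, and the TNF-α and knock-down comparisons share the stimulated wild-type arrays. This order is therefore no independent result. *Gadd45b* and *Gadd45a* were slightly lower, and *Gadd45g* slightly higher, in the knock-down. The background was 5.96% of probe sets past the test (3.36% higher and 2.6% lower; 786 and 609, or 1000 and 454 after centring each array on its median). An unadjusted p under 0.05 was reached by 1 of the 3 genes, *Gadd45g*, and by 17.4% of all probe sets.

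*Gadd45g* had signals of 7.57, 7.62 and 7.76 in the knock-down arrays, all above the stimulated wild-type arrays, the highest of which was 7.45. The gap was 0.12, and 20.9% of all tested probe sets likewise had groups that did not overlap (10.9% with the knock-down higher). The difference of 0.32 (standard error 0.08, 95% confidence interval 0.13 to 0.51) had an adjusted p of 0.066 from limma, and 0.080 with the replicate block. It passed in 3 other settings, among them centring the arrays on their medians (0.37, adjusted p = 0.040 from limma).

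*Gadd45b* was at 10.27, 10.28 and 10.93 in the knock-down arrays. Arrays 1 and 2 lay below all stimulated wild-type arrays, and array 3 lay among them. The difference was -0.36 (standard error 0.18, 95% confidence interval -0.77 to 0.05), with an adjusted p of 0.36 from limma and 0.078 with the replicate block. Knock-down array 3 carried much of the spread, and without it the difference was -0.58 (adjusted p = 0.055 from limma).

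*Gadd45a* was at 7.85, 7.85 and 8.18 in the knock-down arrays, beside 7.88 to 8.54 in the stimulated wild-type arrays. Arrays 1 and 2 lay just below that range and array 3 lay inside it. Between any pair of arrays, 5.34% to 9.80% of the tested probe sets had the same deposited value, as knock-down arrays 1 and 2 had here. The difference was -0.15 (standard error 0.19, 95% confidence interval -0.58 to 0.28; adjusted p = 0.76 from limma). The arrays of the same number differed by -0.03, -0.07 and -0.36, all with the knock-down lower. Without stimulated wild-type array 3, and with knock-down array 3 kept, the difference was 0.06 (adjusted p = 0.88).

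Against unstimulated wild-type cells, the stimulated knock-down cells showed the same directions as the stimulated wild type in each gene, with smaller values, and all 3 genes passed the test. These comparisons share the unstimulated arrays, and the family was chosen by the wild-type differences. Neither the likeness nor the smaller values are therefore an independent result. *Gadd45a* was higher by 0.85 (1.81-fold, standard error 0.19, adjusted p = 0.025 from limma), beside 1.00 in the wild type. *Gadd45b* was higher by 0.80 (1.74-fold, standard error 0.18, adjusted p = 0.026), beside 1.16. *Gadd45g* was lower, at -0.56 (68.0% of the unstimulated signal, standard error 0.08, adjusted p = 0.0042), beside -0.87. In this comparison 8.25% of all tested probe sets passed (3.64% higher and 4.62% lower), 20.5% had an unadjusted p under 0.05, and the groups of 23.4% did not overlap (10.8% higher and 12.6% lower). With the line and the treatment both changed, these values cannot be assigned to either. *Gadd45a* missed the threshold without unstimulated array 1 or 2 or knock-down array 1, 2 or 3 (adjusted p 0.058 to 0.093 from limma), *Gadd45b* without unstimulated array 1 or 2 (adjusted p = 0.086 and 0.090), while *Gadd45g* passed without any 1 of the 9.

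**Figure D2:**
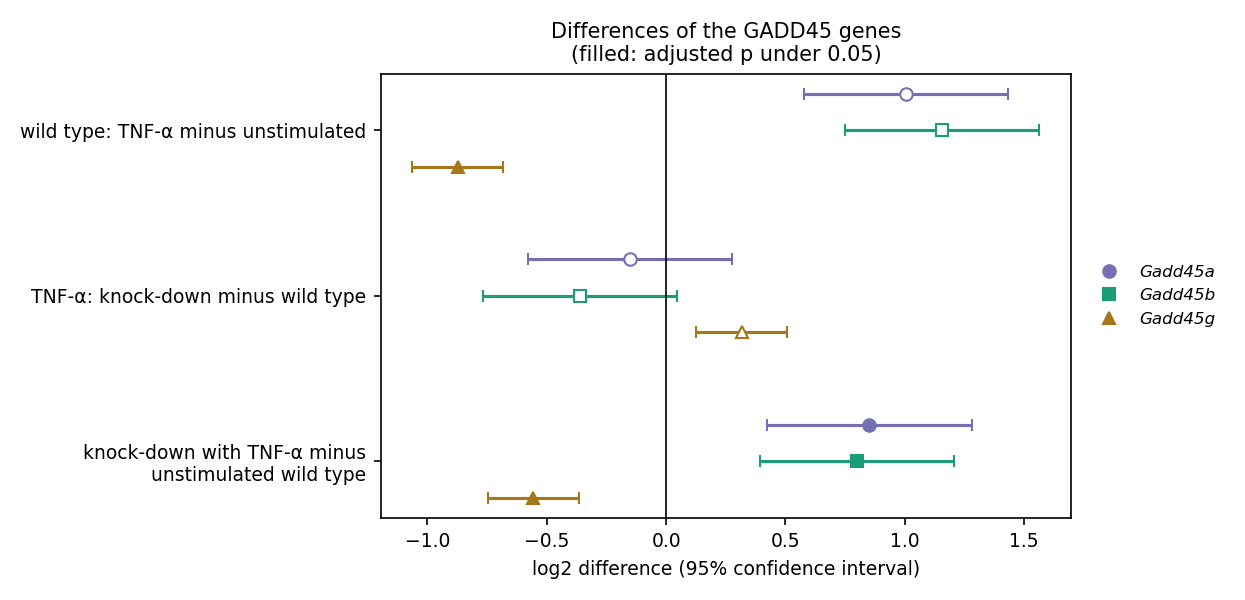
Log2 differences (horizontal axis) of *Gadd45a*, *Gadd45b* and *Gadd45g* in the 3 comparisons, with 95% confidence intervals from the limma model of 9 arrays without the replicate block; filled symbols have an adjusted p under 0.05. The TNF-α difference of *Gadd45g*, at -0.87, lies opposite those of *Gadd45a* (1.00) and *Gadd45b* (1.16), and the differences between knock-down and wild type are the smallest for each gene.

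**Figure D3:**
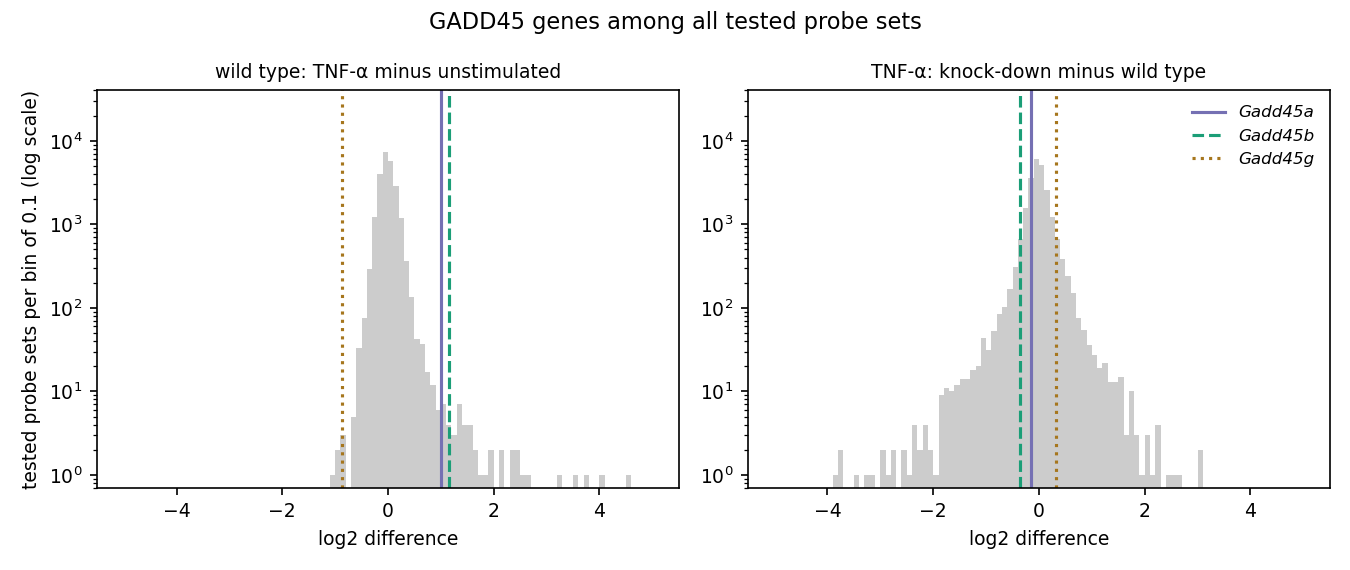
Number of tested probe sets (vertical axis, log scale) per bin of 0.1 in log2 difference (horizontal axis) for the TNF-α response and for the knock-down under TNF-α, with lines at the 3 GADD45 genes. In the TNF-α response 0.201% of probe sets had a larger absolute difference than *Gadd45a*, 0.162% than *Gadd45b* and 0.273% than *Gadd45g*, against 36.3%, 10.4% and 12.9% in the knock-down comparison.

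The partners, regulators and relatives of the GADD45 proteins were described by 5 lists with 45 genes, of which 37 had a single-symbol probe set here. After TNF-α in wild-type cells, 0 of these 37 rose or fell in limma's test, beside 0.115% of all tested probe sets. An unadjusted p under 0.05 was found for 5 of them, beside 7.1% of all tested probe sets, and of these 3 were higher (*Egr1*, *Atf3* and *Foxo3*) and 2 lower (*Cdc25b* and *Cdc25c*). The median difference was -0.06, beside -0.02 over all tested probe sets. Of 14 transcriptional regulators, the immediate-early factors *Egr1* and *Atf3* differed the most, by 1.12 (adjusted p = 0.12) and 1.09 (adjusted p = 0.63). *Egr1* was at 6.22, 6.10 and 5.89 in the unstimulated and at 7.05, 6.95 and 7.56 in the stimulated wild-type arrays. *Atf3*, a stress-induced factor of the ATF family, was at 5.17, 4.73 and 5.45 and then at 6.04, 5.75 and 6.83. For both genes the groups were separated, as they were in 10.2% of all tested probe sets (4.01% higher). Among the list genes *Foxo3* and *Rela* were also separated with higher signals, and *Map3k7*, *Map2k3*, *Cdc25b* and *Cdc25c* with lower ones. For *Egr1* and *Atf3*, stimulated array 3 was the highest, as it was for *Gadd45a* and *Gadd45b*. With the replicate block, *Atf3* rose and was the only one of the 37 to pass, beside 51 higher and 4 lower of all 23410 tested probe sets.

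Of 10 members of the MAP kinase cascade, *Map3k7*, which encodes TAK1, had the largest difference after TNF-α, at -0.15 (adjusted p = 0.72). *Map3k4*, the direct partner of GADD45 proteins, had -0.09 (adjusted p = 0.84). Of 5 cell cycle partners, *Cdc25b*, a phosphatase that activates CDK1, differed by -0.35 (adjusted p = 0.58), and all 5 had negative differences, down to that value and up to -0.08. Of 4 repair and demethylation partners, *Taf12* had the largest difference, at -0.11 (adjusted p = 0.83). The other genes named for growth arrest and DNA damage, *Ddit3* (CHOP) and *Ppp1r15a* (GADD34), differed by 0.16 and 0.23 (adjusted p = 0.81 and 0.76), and *Ppp1r15a* had the largest difference of its list of 4.

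In the knock-down under TNF-α, 3 of the 37 genes rose and 3 fell, beside a background of 3.36% higher and 2.6% lower, and 4 of these 6 belong to the kinase cascade. With the replicate block 4 rose and 4 fell, beside 1156 higher and 952 lower of all 23410 tested probe sets. The added ones were the stress factor *Atf4* (0.42, adjusted p = 0.067 without the block) and *Stat3* (-0.47, adjusted p = 0.18 without the block). *Map2k3*, a kinase of p38, was at 8.82, 8.72 and 8.75 in the stimulated wild-type arrays and at 9.35, 9.41 and 9.44 in the knock-down arrays, and rose by 0.64 (standard error 0.06, adjusted p = 7.9e-04 from limma). *Map2k6*, the other main kinase of p38, was at 6.23, 6.13 and 6.52 and then at 4.77, 5.16 and 5.72, and fell by 1.08 on the log2 scale (standard error 0.21, adjusted p = 0.016). These 2 kinases of p38 thus moved in opposite directions. *Map3k7* rose by 0.51 (standard error 0.08, adjusted p = 0.0068), and *Map3k5*, which encodes the stress kinase ASK1, fell by 0.60 (standard error 0.11, adjusted p = 0.012). *Map3k4* differed by 0.24 (standard error 0.10, adjusted p = 0.24). The call for *Map2k6* was lost without stimulated wild-type array 1 or 3 or knock-down array 2 (adjusted p = 0.055, 0.052 and 0.064) and with just the 6 arrays of the comparison in the model (adjusted p = 0.069), and those for *Map2k3*, *Map3k5* and *Map3k7* held in all 16 alternative settings.

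Among the 14 transcriptional regulators, *Smad3*, a mediator of TGF-β signals, rose by 0.61 in the knock-down (standard error 0.14, adjusted p = 0.040 from limma), and *Foxo3*, a forkhead factor, fell by 0.38 (standard error 0.09, adjusted p = 0.030). Both calls were lost in 8 of 16 settings. *Smad3* had an adjusted p of 0.066 to 0.14 without unstimulated array 1, stimulated wild-type array 1 or 2, or knock-down array 1, 2 or 3. *Foxo3* had one of 0.052 to 0.10 without unstimulated array 2, stimulated wild-type array 2 or 3, or knock-down array 1 or 3. *Egr1* and *Atf3* differed by 0.21 and 0.43 between knock-down and wild type (adjusted p = 0.66 and 0.61). None of the 5 cell cycle partners, 4 repair partners and 4 GADD relatives passed. Their largest differences were those of the cyclin gene *Ccnb2*, at 0.20, of *Taf12*, at 0.35, and of *Ppp1r15a*, at 0.21 (adjusted p = 0.15, 0.10 and 0.53).

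Against unstimulated wild-type cells, 5 of the 37 genes were higher and 2 lower in the stimulated knock-down, beside 3.64% and 4.62% of all tested probe sets. They were *Map2k3* (0.51), *Map3k7* (0.35), *Smad3* (0.58), *Egr1* (1.33, adjusted p = 0.0034 from limma) and *Atf3* (1.52, adjusted p = 0.030) on the higher side, and *Map2k6* (-1.11) and *Map3k5* (-0.57) on the lower side. *Atf3* lost the call in 7 of 16 settings (adjusted p up to 0.10), among them without unstimulated array 1 or 2, stimulated wild-type array 1, or knock-down array 2 or 3. *Map3k7* lost it in 7 (up to 0.096), among them without any 1 of the unstimulated or the knock-down arrays. *Smad3* lost it in 8 (up to 0.13), among them without unstimulated array 1 or 2, stimulated wild-type array 1, or any knock-down array.

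**Figure D4:**
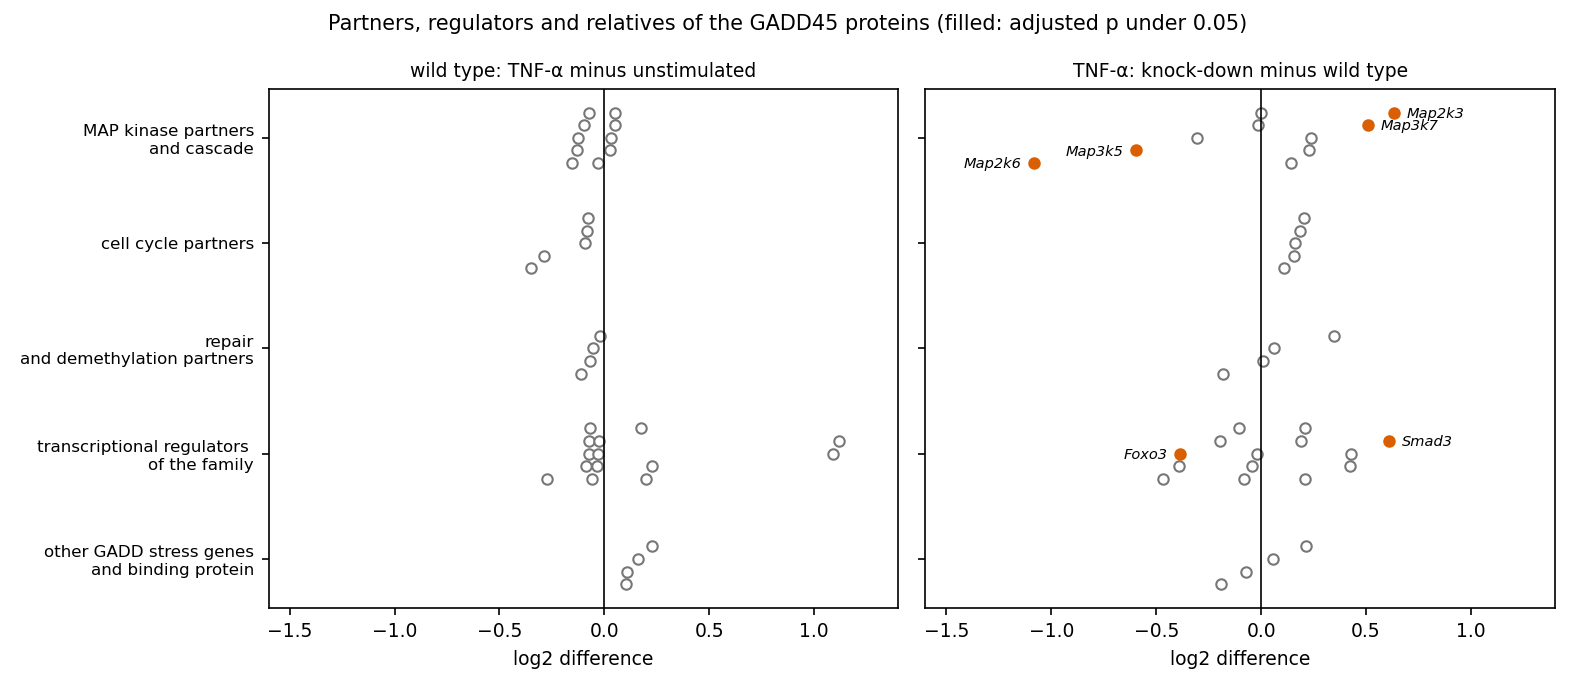
Log2 differences (horizontal axis) of the 37 measured partners, regulators and relatives of the GADD45 proteins, by list, for the TNF-α response of wild-type cells and for knock-down minus wild type under TNF-α; filled points have an adjusted p under 0.05 and are named. None passes on the left, where *Egr1* and *Atf3* stand apart at 1.12 and 1.09, and 6 pass on the right.

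The genes whose profile over the 9 arrays was most like that of a GADD45 gene were sought among 9966 other genes at or above the median level, by Pearson's r of the log2 signals. The arrays are the same for both genes of a pair, and the value describes both the steps between groups and the spread within them. For *Gadd45a* they were *Nfkb2* (r = 0.987), an NF-κB subunit, *Icam1* (r = 0.987), an adhesion molecule, and *Irf1* (r = 0.983), an interferon regulatory factor. For *Gadd45b* they were *Icam1* (r = 0.980), the chemokine gene *Cxcl10* (r = 0.973) and *Bcl3* (r = 0.969), an atypical IκB protein. *Icam1* was among the 3 for both genes, but it was below the median level of 5.02 in unstimulated cells (mean 4.97) and entered the search through its higher level in the stimulated groups. It was at 4.90, 4.79 and 5.22 unstimulated, at 5.92 to 6.56 in stimulated wild-type and at 5.79, 5.59 and 6.24 in knock-down arrays. Like *Gadd45a* and *Gadd45b*, it had its highest value in array 3 of each group. Since the genes were picked by r over these arrays, such a likeness is no separate result. Pearson's r takes no account of the size of a step. *Cxcl10* rose by 4.02 with TNF-α in wild-type cells (adjusted p = 0.0049 from limma) and differed by -1.53 in the knock-down (adjusted p = 0.047). *Irf1* rose by 2.46 with TNF-α (adjusted p = 0.022) and did not pass in the knock-down. *Nfkb2*, *Icam1* and *Bcl3* passed in neither comparison, with TNF-α differences of 0.71, 1.19 and 0.82.

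*Gadd45a* and *Gadd45b* correlated with each other at r = 0.956 over the 9 arrays, and at 0.827 in their deviations from the group means. For both genes array 3 stood highest in each group, so much of the within-group value comes from array 3 against arrays 1 and 2. *Gadd45g* correlated with them at -0.860 and -0.869, and its deviations from the group means at -0.104 and 0.297. The negative correlations of *Gadd45g* thus reflect the steps between the groups.

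For *Gadd45g* the genes of most similar profile were the probe set annotated to the microRNA gene *Mirlet7e* (r = 0.964), *Dusp10* (r = 0.957), a phosphatase that inactivates p38 and JNK, and *Map3k12* (r = 0.956), a kinase upstream of JNK. Their steps were smaller than that of *Gadd45g*. *Dusp10* was at 7.26 ± 0.06 (SD, n = 3) unstimulated and 6.78 ± 0.07 in stimulated wild-type cells, a TNF-α difference of -0.48 (adjusted p = 0.13 from limma). *Mirlet7e* differed by -0.37 (adjusted p = 0.14) and *Map3k12* by -0.32 (adjusted p = 0.33). None of the 3 passed the test in that comparison or between knock-down and wild type.

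**Figure D5:**
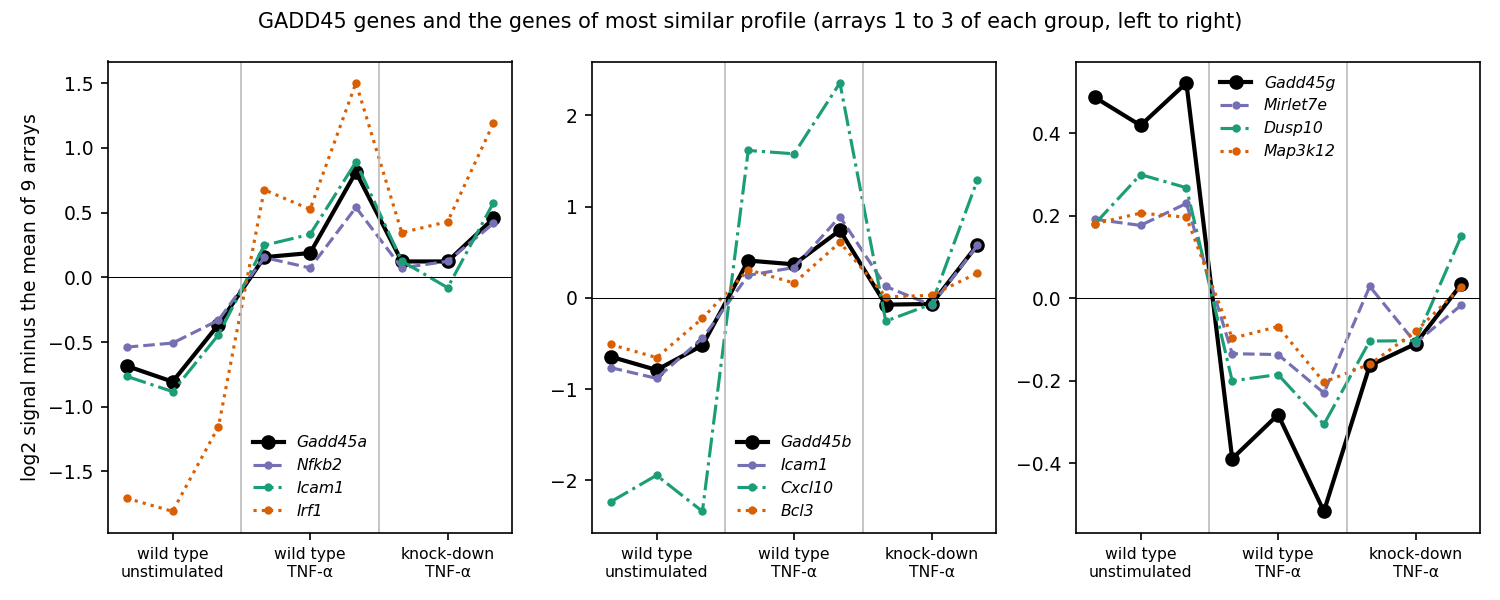
Log2 signal minus the gene's own mean over 9 arrays (vertical axis, a different span in each panel) for each GADD45 gene (black) and the 3 genes with the highest Pearson's r to it; the horizontal axis holds arrays 1 to 3 of each group from left to right, and lines only join the points of a gene. *Gadd45a* and *Gadd45b* show the step up with TNF-α and the high array 3 of each group, and *Gadd45g* shows the step down. The other genes were picked by their likeness over these same arrays, so a shared shape follows from that choice. *Cxcl10* had its lowest unstimulated value in array 3.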

How the data were processed

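Total RNA of 9 samples was hybridised to Affymetrix Mouse Gene 1.0 ST arrays. The authors deposited log2 values made with RMA (version not given in the sources used here), which were used as deposited. Of 35557 probe sets, 21789 list 1 gene symbol, 1621 several and 12147 are unnamed here. The 23410 with a gene entered 1 linear model with a mean per group, fitted by lmFit and eBayes of limma 3.58.1 in R 4.3.3. The code was first run on simulated data with independent noise. That check required recovery only of differences larger than any of the GADD45 genes, so that it does not cover differences of their size. Confidence intervals are limma's, per probe set. P-values rest on the spread between independent samples, pooled over all 3 groups and moderated by limma over all tested probe sets. An array outside a comparison can therefore change its p-value. The 3 samples per group limit the precision. Of the 45 listed genes, 37 were analysed here. Those not analysed here include *Map2k7*, *Ccnb1*, *Cdkn1a*, *Tdg*, *Trp53*, *Pou2f1* and *Nfkb1*. *Pcna* and *Ppp1r15b* had 2 and were taken by the brighter one.

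The 3 genes, the lists and the rules were chosen with earlier results of these data known. Named were the 3 genes, *Med17*, list genes that passed or had the largest difference of their list, and the 3 genes of highest Pearson's r with each; others, such as *Map3k4*, *Ddit3*, *Cdc25c*, *Atf4*, *Stat3* and the cell type markers, were named after their values were seen.

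The groups share replicate numbers 1 to 3. Deviations from the group means, over the tested probe sets, correlated between arrays of one number at 0.110 to 0.403 for the TNF-α response and 0.147 to 0.465 for the knock-down difference, but 0.0022 to 0.221 between unstimulated wild-type and knock-down arrays. Some arrays of different number correlated as much. Stimulated wild-type array 1 with unstimulated array 2 stood at 0.249, and knock-down array 1 with stimulated wild-type array 2 at 0.160. The labels do not say what a number marks, so this pairing comes from the data. It rests mainly on array 3, and arrays 1 and 2 were not clearly paired by number. The model was also run with the number as a block.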

Additional observations from a re-analysis of the deposited data

How the results depend on the processing

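Each of 13 results was recomputed in 16 other settings, and 182 of the 208 values kept their direction and their side of the threshold or, for counts, stayed within 1.5 times the reported one. With the replicate number as a block, *Gadd45a* (1.00) and *Gadd45b* (1.16) passed in the TNF-α response, and 1 of the 37 list genes did instead of 0. In the knock-down 8 list genes passed instead of 6 (*Atf4* and *Stat3* added), and against resting wild type 10 instead of 7 (*Atf4*, *Ppp1r15a* and *Stat3* added). The block changed no other call of the GADD45 genes or *Med17*. Over all tested probe sets it gave 51 higher and 4 lower for TNF-α instead of 26 and 1. It gave 1156 higher and 952 lower for the knock-down, and 1213 and 1609 against resting wild type instead of 851 and 1081. With just the 6 arrays of a comparison in the model, *Gadd45g* missed for TNF-α (-0.87, adjusted p = 0.059 from limma) and *Gadd45b* missed for the stimulated knock-down against resting wild type (0.80, adjusted p = 0.064). In that model 9 probe sets were higher and 0 lower for TNF-α, against 10 and 3 with all 35557 probe sets tested, 39 and 2 with only probe sets at or above the median level, and 51 and 5 with array weights (1320 and 1139 for the knock-down). Without 1 array at a time, 8 to 22 were higher for TNF-α, lowest without unstimulated array 2, and 424 to 893 for the knock-down, lowest without stimulated wild-type array 1. Testing all 35557 probe sets also took *Gadd45a* (0.85) and *Gadd45b* (0.80) against resting wild type over the threshold (adjusted p = 0.056 and 0.059) and left 4 list genes there instead of 7. With only the brighter probe sets, of which fewer are tested, *Gadd45b* passed for TNF-α (1.16, adjusted p = 0.040) and *Gadd45g* for the knock-down (0.32, adjusted p = 0.038). With array weights *Gadd45b* (1.15, adjusted p = 0.023) and *Gadd45g* (0.30, adjusted p = 0.026) passed in the same comparisons, and *Gadd45g* did after centring each array on its median (0.37, adjusted p = 0.040). Where no construction is named, the cause was not tested.

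Without 1 of the 9 arrays at a time, the TNF-α difference of *Gadd45a* was 0.79 to 1.13, that of *Gadd45b* 1.04 to 1.23 (it passed without knock-down array 3, adjusted p = 0.016) and that of *Gadd45g* -0.93 to -0.81. The knock-down difference of *Gadd45a* was -0.27 to 0.06, reversed at 0.062 without stimulated wild-type array 3, that of *Gadd45b* -0.58 to -0.24 and that of *Gadd45g* 0.26 to 0.37. Against resting wild type *Gadd45a* was at 0.74 to 0.98, *Gadd45b* at 0.58 to 0.91 and *Gadd45g* at -0.61 to -0.51. Of the list genes, 4 to 7 passed in that comparison (4 without unstimulated array 1 or 2 or knock-down array 3), 4 to 7 in the knock-down and 0 for TNF-α. The average over a gene's probe sets was not run, since each of the 3 genes has 1.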
